A study of Homo sapiens with 3 samples.

Results

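The Fanconi anaemia and homologous recombination genes are 46 genes listed by name that act at DNA crosslinks and double-strand breaks. Of the 46, 38 had an array probe set that names only that gene, out of 22395 genes measured in that way. ATM, RAD51D and RAD54B were named only on probe sets shared with other genes, and FANCA, FANCD2, BRCA2, XRCC2 and RBBP8 were not analysed here. Where a gene had several probe sets, the one with the highest mean was used. The members and lists were chosen with earlier results of these arrays known, so their counts are descriptions.

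RNA levels were measured on Affymetrix arrays in HEK293T, a widely used line derived from human embryonic kidney that expresses the large T antigen of SV40 (its cell line label is spelled HEK239T). Growing cells carried, after lentiviral transduction, the empty pCDF1 vector, pCDF1 with wild-type TRAF7 or pCDF1 with the TRAF7 G536S mutant, and all 3 groups were selected in puromycin. TRAF7, a RING finger protein, is a ubiquitin ligase whose WD40 repeats bind other proteins. Each group has 1 array, so no difference has a replicate check, no test between groups was possible, and whether the cells were pools or clones is not given in the sources used here. Levels are log2 intensities made with RMA, the authors' background correction, normalization and probe summary. Where 3 levels of a gene follow each other, they are in the order empty vector, wild type, G536S. A difference is one array minus another on the log2 scale, so that 0.58 is 1.5-fold and 1 is 2-fold. In such bulk samples, fewer cells of a kind and less RNA per cell cannot be told apart.

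In the Fanconi anaemia pathway, a nuclear core complex with the ligase FANCL and the conjugating enzyme UBE2T attaches ubiquitin to the pair of proteins FANCI and FANCD2 at a stalled crosslink, and USP1 with WDR48 takes it off again. Nucleases then cut the crosslink out, and the break that this leaves is repaired by homologous recombination, in which BRCA1, PALB2 and BRCA2 act at resected DNA. Large T antigen binds the retinoblastoma and p53 proteins, and many repair genes are transcribed in S and G2 phase, as background to these proliferating cells.

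TRAF7 levels were 5.66, 8.11 and 7.35 in that order, so both construct arrays were higher than the empty vector array, as labelled. G536S lay -0.76 from wild type in TRAF7 itself. In every comparison of G536S with wild type, the mutation and the lower TRAF7 level therefore cannot be told apart. The 75th percentile of all 53617 probe sets was 1.73 in the empty vector array and 1.85 and 1.86 in the wild-type and G536S arrays, so the empty vector array was lower in its upper values. Of 11 measured HEK293 markers, 9 were at or above the median gene level of 1.21, while NEFM and KRT8 were near background, from 0.85 to 1.16. KRT18 passed only just (mean 1.21) and LHX1 was also low (1.37). At or above the 75th percentile of gene means (2.87) were 6 of the 11. Leukocyte, fibroblast and endothelial markers passed the median gene level for 2 of 10, 1 of 8 and 1 of 7 measured genes. These were CD68 and CD79A (means of 2.42 and 1.33), COL1A1 (2.55) and EGFL7 (1.58), while PTPRC, DCN and CDH5 read at most 1.00. The log2 of the summed linear levels of the 3 lists ranged over the arrays from 4.45 to 4.53, from 4.21 to 4.28 and from 3.80 to 3.86.

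Only 4 of the 38 measured members were at least 1.5-fold apart in any comparison, namely FANCL, FIGNL1, ERCC4 and UIMC1, and 34 were not. Over the same 3 comparisons 6.87% of all measured genes and 13.6% of the genes at or above the median level were that far apart. FANCL was higher with both constructs, FIGNL1 was higher with wild type and higher again with G536S, and ERCC4 was higher with wild type. The UIMC1 value rests on a probe set that lies among mitochondrial probe sets, as described with the BRCA1-A complex. No member was 1.5-fold lower in any comparison. Of the 38 members, 37 were at or above the median gene level. FANCF was below it.

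The members were then counted together. At least 1.5-fold higher were 3 of 38 with wild type, against 2.73% of all 22395 genes and 5.42% of the 11198 at or above the median level. With G536S it was 3 of 38, against 3.05% and 6.07%, and 2 of 37 without UIMC1. Between G536S and wild type it was 2 of 38, against 1.11% and 2.17%, and 1 of 37 without UIMC1. At least 1.5-fold lower were 0 of 38 in each comparison, against 0.911%, 1.07% and 0.929% of all genes and 1.79%, 2.08% and 1.81% of those at or above the median level. At least 2-fold higher were 1 of 38, 3 of 38 and 1 of 38, against 0.397%, 0.464% and 0.134% of all genes and 0.795%, 0.929% and 0.268% of those at or above the median level, and without UIMC1 the counts were 1, 2 and 0 of 37. Each of these counts can turn on 1 probe set, and nothing particular to the list is read from them.

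The median member differed by 0.09 with wild type, by 0.18 with G536S and by 0.03 between G536S and wild type. The medians of genes at or above the median level were 0.08, 0.10 and 0.01, so the members' median was 0.01, 0.08 and 0.02 above them. Over all measured genes the medians were -0.00075, -0.0047 and -0.0033. Above 0 were 30, 28 and 21 of the 38 members (78.9%, 73.7% and 55.3%), against 62.6%, 63.9% and 51.4% of the genes at or above the median level. The empty vector array was the lowest of the 3 for 25 of 38 members (65.8%) and for 50.4% of those genes.

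Quantile normalization moved the median of the genes at or above the median level by -0.10 with wild type and -0.12 with G536S. It left 17 and 22 of 38 members above 0, against 46.7% and 45.9% of those genes. The members' median then lay 0.002 and 0.06 above the median of those genes. Under the 3 rescalings 15 members changed sign with wild type and 7 with G536S, all of them from deposited differences of at most 0.14 in size, and FANCF and BRCA1 did between G536S and wild type. Both comparisons with the empty vector share that array, so their values are only set side by side.

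**Figure D1:**
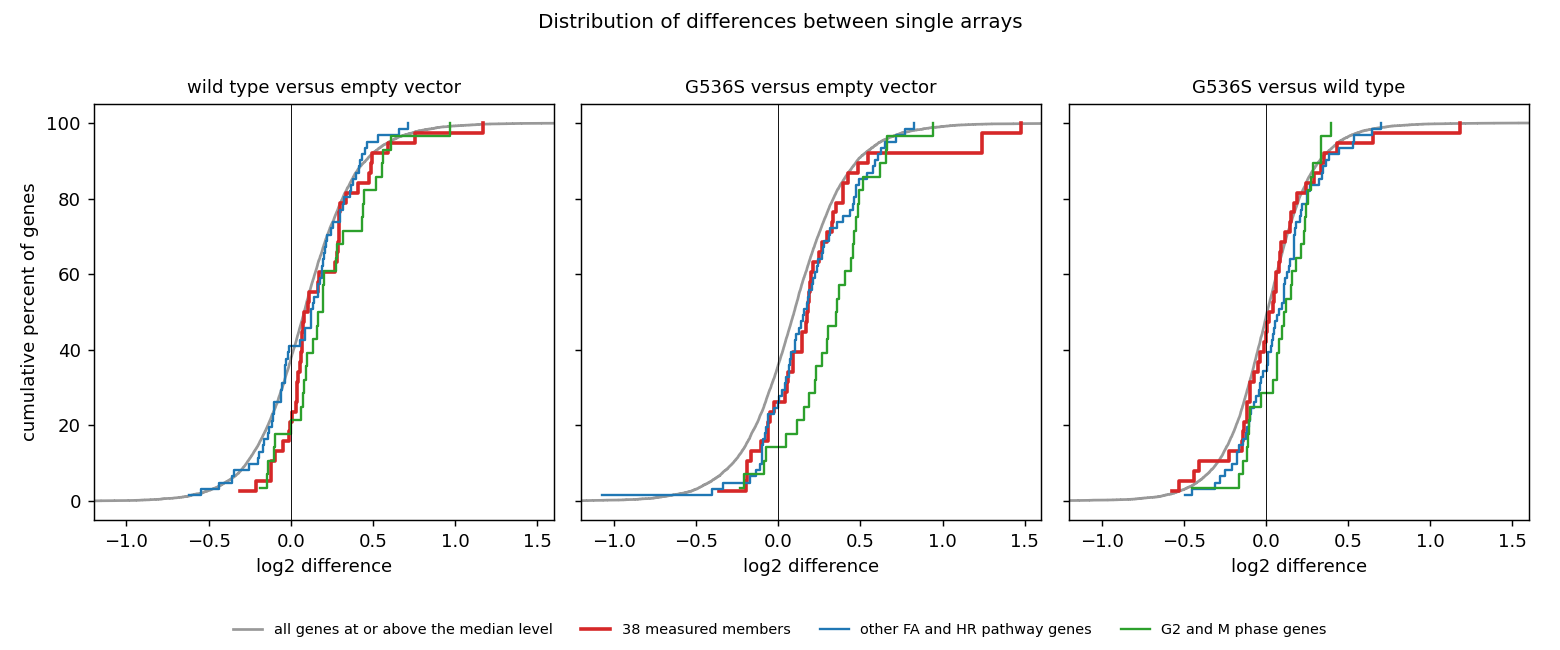
Cumulative percent of genes (vertical axis) by log2 difference between single arrays (horizontal axis) in the 3 comparisons, for the 38 measured members (red), 61 other Fanconi anaemia and recombination genes (blue), 28 G2 and M phase genes (green) and the 11198 genes at or above the median level (grey). The members' median lies 0.01, 0.08 and 0.02 from that of the grey curve, and the G2 and M phase genes lie to the right of it with G536S (median 0.35).

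The promoters of the 3 members whose own probe set was past 1.5-fold are shown because these genes carry the differences, beside that of FANCC, the measured member whose promoter holds a match to E2F, the factor family that drives S phase genes. Sequences are the 250 bases before the gene's start, 5′ to 3′ on the gene's strand, from RefSeq on GRCh38.p14. They lie at chr2:58241326-58241575 on the minus strand for FANCL, chr7:50450351-50450600 on the minus strand for FIGNL1, chr16:13919904-13920153 on the plus strand for ERCC4 and chr9:95317710-95317959 on the minus strand for FANCC, just upstream of the annotated transcript. Capitals mark matches to the motifs searched.
FANCL: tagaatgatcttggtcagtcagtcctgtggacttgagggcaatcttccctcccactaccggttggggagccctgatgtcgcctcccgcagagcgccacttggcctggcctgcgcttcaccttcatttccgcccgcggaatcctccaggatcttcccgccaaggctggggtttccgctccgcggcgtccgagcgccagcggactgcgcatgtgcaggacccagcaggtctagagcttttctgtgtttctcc
FIGNL1: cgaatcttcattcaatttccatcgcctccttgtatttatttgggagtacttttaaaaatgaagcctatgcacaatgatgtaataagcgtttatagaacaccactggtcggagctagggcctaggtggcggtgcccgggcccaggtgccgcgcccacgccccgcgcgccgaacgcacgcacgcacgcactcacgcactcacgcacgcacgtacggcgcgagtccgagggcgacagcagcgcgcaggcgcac
ERCC4: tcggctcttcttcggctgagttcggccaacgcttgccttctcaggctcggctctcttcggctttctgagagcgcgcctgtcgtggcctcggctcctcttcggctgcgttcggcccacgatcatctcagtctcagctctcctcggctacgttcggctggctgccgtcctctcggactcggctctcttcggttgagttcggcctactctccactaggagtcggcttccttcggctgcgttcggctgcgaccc
FANCC: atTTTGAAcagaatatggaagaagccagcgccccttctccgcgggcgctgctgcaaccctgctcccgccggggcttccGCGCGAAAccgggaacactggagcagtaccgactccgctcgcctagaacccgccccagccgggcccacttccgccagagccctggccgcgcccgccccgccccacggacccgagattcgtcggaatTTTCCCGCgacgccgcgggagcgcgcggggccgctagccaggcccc

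Windows of 300 bases, from 250 before to 50 after the start, were searched on both strands for E2F (TTTGGCGC, TTTCCCGC, TTTGCCGC or TTTCGCGC), for CCAAT, the NF-Y box, and for the cell cycle homology region CHR (TTTGAA), with overlapping matches allowed. Of the 46 members 43 had a promoter in the table. An E2F match was in 4 of the 43 (9.3%), against 3.33% of all 27305 promoters and 5.71% of those of genes at or above the median level. These were FANCC, which has 2 matches, and FANCA, FANCD2 and XRCC2, which were not analysed on the arrays. CCAAT was in 19 of 43 members (44.2%, against 35.7% and 37.4%) and CHR in 5 of 43 (11.6%, against 15.4% and 9.54%). Of the 43 members 21, among them FANCL, FIGNL1 and ERCC4, held none of these letters in the window. FANCC, which held E2F and CHR matches, lay 0.06 from the empty vector with wild type and -0.16 with G536S. Whether a motif goes with a difference was not tested. A match describes the sequence and is no measure of binding.

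**Figure D2:**
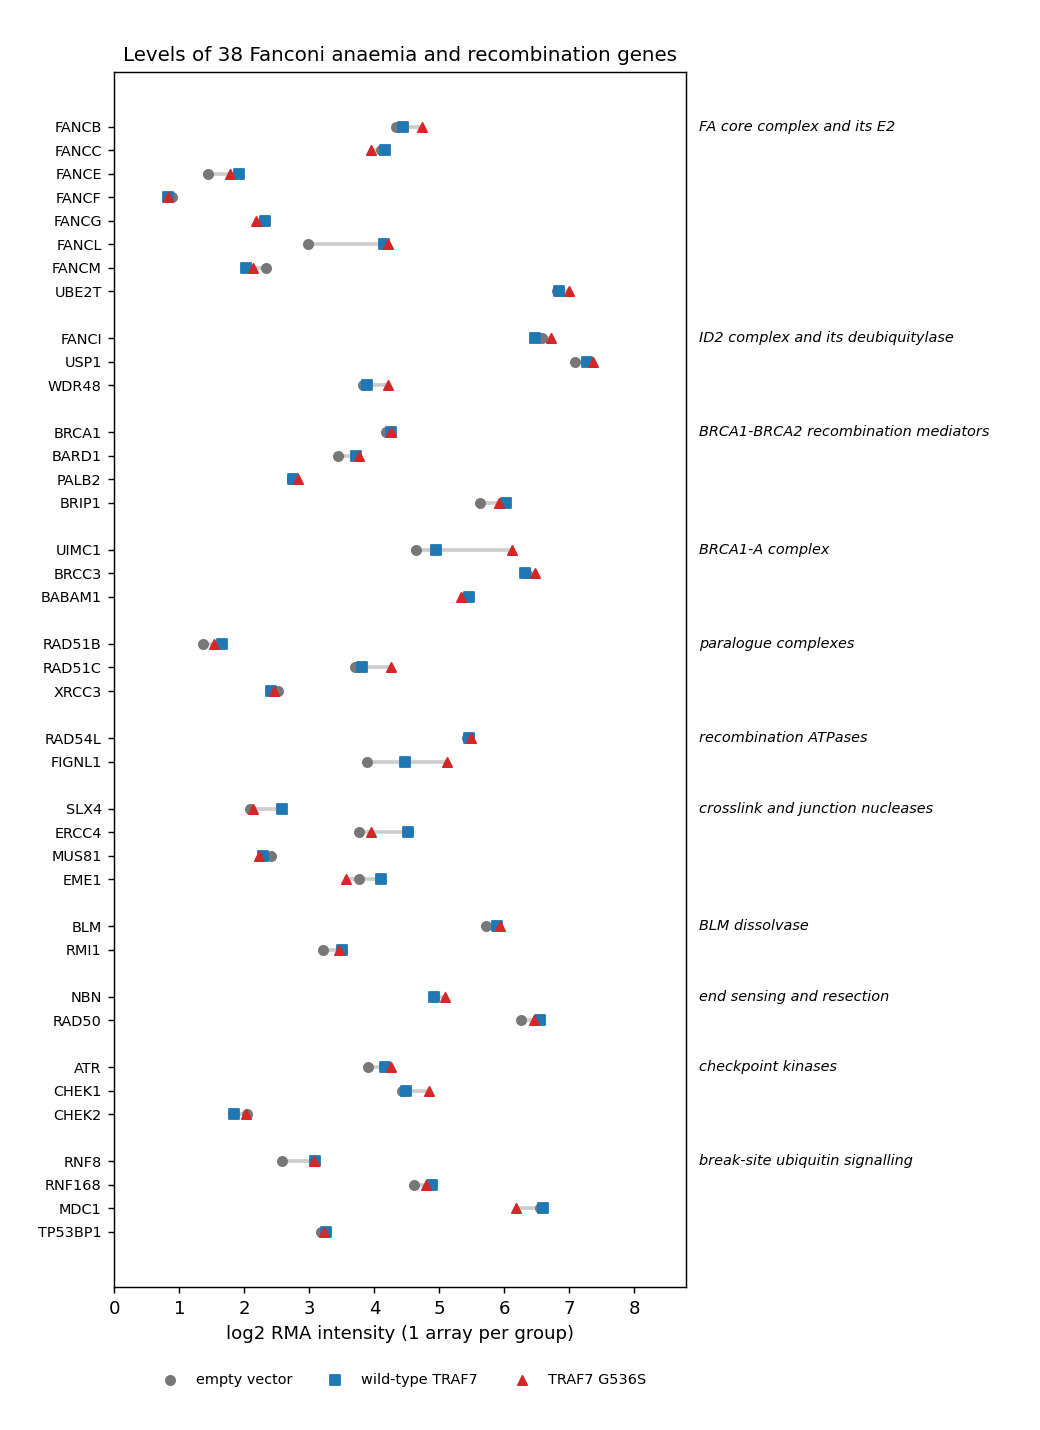
Log2 RMA intensity of the 38 measured members on the horizontal axis, grouped by role, with 1 point per array (grey circle, empty vector; blue square, wild-type TRAF7; red triangle, TRAF7 G536S) and a grey bar from the lowest to the highest array. FANCL has a low empty vector point and a close pair of construct points (2.97, 4.15 and 4.21), FIGNL1 is spread in steps (3.88, 4.47 and 5.12), and most other members have their 3 points close together.

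The core complex recognises the crosslink and holds the pathway's ubiquitin ligase. FANCL, that ligase, read 2.97, 4.15 and 4.21. The empty vector array was thus low and the construct arrays were alike, 2.26-fold and 2.36-fold higher. These differences of 1.17 and 1.24 were above those of 99.7% of the 11198 genes at or above the median level in each comparison, and G536S and wild type were 0.06 apart. After quantile normalization, cyclic loess or median centring FANCL stayed between 1.04 and 1.27 for both constructs.

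The other measured core genes were less than 1.5-fold apart in every comparison. FANCE, which bridges the core to FANCD2, read 1.45, 1.92 and 1.78. It was low with the empty vector, by 0.47 and 0.33 (0.39 and 0.24 at the lowest after rescaling). FANCB, which sits with FANCL and FAAP100 in the catalytic part of the core, read 4.34, 4.44 and 4.73, and was highest with G536S (0.39 against the empty vector, 0.29 against wild type). FAAP100, from the list of other pathway genes, differed by 0.09 and -0.08 from the empty vector. FANCM, the helicase-like protein that anchors the core to DNA, read 2.33, 2.02 and 2.14, highest with the empty vector (-0.31 and -0.19).

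FANCC, a partner of FANCE, read 4.11, 4.17 and 3.94, and FANCG, a scaffold for FANCA, read 2.28, 2.32 and 2.18; in both genes G536S was the lowest array. FANCF, an adaptor in the core, read 0.88, 0.83 and 0.83, a level near background at which a difference is compressed. UBE2T, the conjugating enzyme that works with FANCL, read 6.81, 6.84 and 6.99, within 0.18 of each other. The 8 measured genes of the core and its E2 had medians of 0.05 with wild type and 0.06 with G536S, and FANCL was the only one of them at least 1.5-fold apart.

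FANCI, the measured partner of the clamp that the core modifies, read 6.57, 6.47 and 6.72. USP1, the protease that removes that ubiquitin, read 7.09, 7.27 and 7.36, and its cofactor WDR48 read 3.82, 3.88 and 4.21. All 3 were highest with G536S (as were 40.0% of genes at or above the median level), by 0.24, 0.09 and 0.33 over wild type. The signs held after the 3 rescalings, but USP1 fell to 0.005 after quantile normalization, so no direction can be given for it. The median of the 3 was 0.26 for G536S and 0.06 for wild type against the empty vector.

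BRCA1 and its partner BARD1 form a ubiquitin ligase that acts at resected ends. BRCA1 read 4.17, 4.25 and 4.26, differences of 0.08 and 0.09 that became -0.06 and -0.08 at their lowest after rescaling, so no direction can be given. BARD1 read 3.44, 3.72 and 3.77, with the empty vector array low by 0.28 and 0.33 (0.14 and 0.17 at the lowest after rescaling). PALB2, which joins BRCA1 to BRCA2, read 2.73, 2.74 and 2.82. BRIP1, a helicase that binds BRCA1, read 5.62, 6.03 and 5.92, and was higher with both constructs by 0.41 and 0.30. All 4 lay above the empty vector array in both construct arrays as deposited, and 2 of 4 did after quantile normalization or cyclic loess, in each comparison. Of genes at or above the median level 62.6% lay above it with wild type and 63.9% with G536S, as deposited.

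The BRCA1-A complex carries BRCA1 to ubiquitin chains at breaks, through UIMC1 (RAP80), which binds the chains. UIMC1 had 2 probe sets, and they disagreed. The one with the higher mean (17100695) read 4.64, 4.94 and 6.12 in the empty vector, wild-type and G536S arrays, a G536S difference of 1.48 from the empty vector and 1.18 from wild type. The other (17003151) read 3.29, 3.77 and 3.65, so that the empty vector array was low by 0.48 and 0.36 and G536S lay -0.12 from wild type.

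The place of these probe sets was then read from the probe set numbering, in which 50 of the 51 probe sets of members had at least 5 of their 10 nearest named neighbours on the gene's own chromosome. For probe set 17003151 it was 10 of 10, on chromosome 5, where UIMC1 lies. For probe set 17100695, the exception, it was 0 of 10, and 6 were mitochondrial genes: it stands 25th in a run of 26 probe sets that starts with ND1, just before ND6. In that run the 10 probe sets named for mitochondrial genes differed between G536S and wild type by -0.10 to 0.26, with a median of 0.10. The 15 unnamed ones were higher with G536S in 15 of 15, by 0.23 to 2.56, with a median of 0.72. In that comparison probe set 17100695 lay within the range of the unnamed ones (1.18) and 17003151 outside it. With wild type against the empty vector it was otherwise: 17100695, at 0.30, lay above every unnamed one (-0.81 to 0.26) and within the range of those named for mitochondrial genes (-0.07 to 0.40). With G536S against the empty vector both UIMC1 probe sets, at 1.48 and 0.36, lay within the range of the unnamed ones (-0.57 to 2.20). Which transcript probe set 17100695 reads was not tested. The counts of members at least 1.5-fold or 2-fold higher are therefore given with and without it. Without it the members' medians were 0.08, 0.17 and 0.02, and 29, 27 and 20 of 37 members were above 0. The other counts of members include it.

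**Figure D3:**
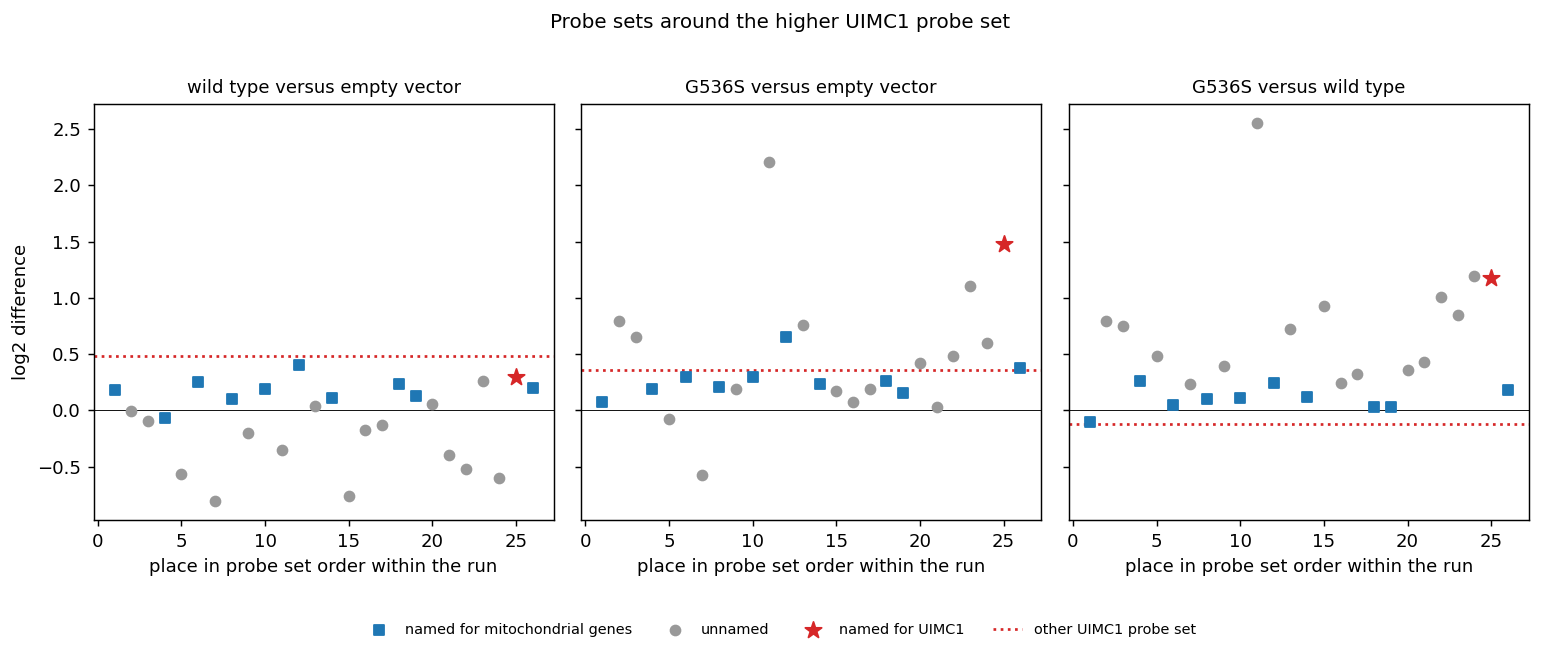
Log2 differences between single arrays (vertical axis) for the 26 probe sets of the mitochondrial run in probe set order (horizontal axis), in the 3 comparisons, with unnamed probe sets as grey circles, those named for mitochondrial genes as blue squares and the other UIMC1 probe set as a dotted line (0.48, 0.36 and -0.12). The probe set named for UIMC1 (red star) lies above the unnamed ones for wild type versus empty vector (0.30, against -0.81 to 0.26) and among them for G536S versus empty vector (1.48) and G536S versus wild type (1.18).

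BRCC3, the protease of the complex that cuts the chains, read 6.33, 6.32 and 6.47, and BABAM1, a scaffold subunit, read 5.40, 5.46 and 5.33. Their differences in the 3 comparisons lay between -0.13 and 0.15. ABRAXAS1, the central scaffold, taken from the list of other pathway genes, differed by 0.21 and 0.11 from the empty vector, at a mean level of 1.56 where differences are compressed.

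RAD51B, RAD51C, RAD51D, XRCC2 and XRCC3 form complexes that promote strand exchange. RAD51C, which belongs to both of these complexes, read 3.70, 3.81 and 4.25: G536S was high, by 0.55 over the empty vector (1.46-fold) and 0.43 over wild type (1.35-fold). RAD51B, its partner, read 1.36, 1.66 and 1.54, and XRCC3, its partner in the other complex, read 2.52, 2.40 and 2.46. These partners did not follow RAD51C, at -0.12 and 0.06 between G536S and wild type. RAD51D was read only on a probe set shared with RFFL, at 2.45, 2.73 and 2.60.

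FIGNL1, an ATPase that acts in recombination, was the member with the clearest step between all 3 arrays. Its levels were 3.88, 4.47 and 5.12. Wild type was 0.59 and G536S 1.24 above the empty vector, the latter 2.36-fold, and G536S was 1.57-fold above wild type (0.65). These differences lay above those of 94.7%, 99.7% and 98.4% of the genes at or above the median level. The G536S differences stayed past 1.5-fold after every rescaling (lowest 1.10 and 0.62), and that of wild type fell to 0.48 after quantile normalization and to 0.46 after cyclic loess.

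FIRRM, the partner of FIGNL1, is in the list of other pathway genes and read 4.35, 4.67 and 4.80, with differences of 0.33 and 0.45 from the empty vector, the same order of arrays at a smaller size. FIGN, a relative of FIGNL1, read 3.10, 3.57 and 3.07, and was high with wild type only (0.47). RAD54L, a DNA motor protein of recombination, read 5.42, 5.46 and 5.48 and differed by at most 0.06. Its relative RAD54B was read on a probe set shared with FSBP, at 3.97, 4.56 and 4.26.

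The nucleases cut at crosslinks and at recombination junctions, and SLX4 is the scaffold that holds them. ERCC4 (XPF), the catalytic subunit of the nuclease that unhooks crosslinks, read 3.76, 4.51 and 3.94. Wild type was the high array, 1.69-fold over the empty vector (0.75) and above 97.6% of genes at or above the median level. G536S lay -0.57 from wild type, with 1.97% of those genes below it, and 0.19 from the empty vector.

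SLX4 read 2.08, 2.57 and 2.13, and EME1, which pairs with the nuclease MUS81, read 3.76, 4.10 and 3.57. The wild-type array was again the high one for both: SLX4 was 0.49 and EME1 0.33 above the empty vector, and G536S was -0.44 and -0.53 from wild type, with 4.46% and 2.63% of genes below them. MUS81 read 2.41, 2.29 and 2.22 and did not share this pattern. All 4 were lower with G536S than with wild type, with a median of -0.48. So were 4 of 4 after each of the 3 rescalings, which use the same arrays. Of genes at or above the median level 51.4% were above 0 in that comparison. SLX4 and MUS81 had means of 2.26 and 2.31, below the 75th percentile of gene means (2.87). Against the empty vector the median of the 4 was 0.41 for wild type and -0.07 for G536S.

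Partners of these nucleases outside the members did not have wild type as their high array. ERCC1, the partner of ERCC4, read 3.23, 3.20 and 3.17, and SLX4IP read 2.75, 2.74 and 2.62, so G536S lay -0.03 and -0.12 from wild type. EME2, the other partner of MUS81, read 3.76, 3.13 and 2.68, and was lower with wild type by 0.62 and with G536S by 1.07, the lowest difference of the other pathway genes. G536S lay -0.45 from wild type in EME2, close to the value of SLX4. GEN1, a separate junction nuclease, read 4.14, 4.20 and 4.38, highest with G536S.

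BLM, the helicase that dissolves double junctions, read 5.71, 5.88 and 5.93, and its partner RMI1 read 3.21, 3.50 and 3.45. Both had a low empty vector array, by 0.16 to 0.29, and G536S and wild type were within 0.05. At the lowest after rescaling the construct arrays lay 0.05 and 0.06 above it for BLM and 0.13 and 0.09 for RMI1. NBN and RAD50, parts of the complex that senses and trims broken ends, read 4.92, 4.91 and 5.09, and 6.26, 6.55 and 6.46. MRE11, the nuclease of that complex, from the list of other pathway genes, read 3.68, 4.12 and 4.29, and was 0.61 higher with G536S.

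Among the checkpoint kinases, ATR, which answers to single-stranded DNA, read 3.89, 4.17 and 4.25. It was low with the empty vector, by 0.27 and 0.35 (0.15 and 0.21 at the lowest after rescaling). CHEK1, the kinase it activates, read 4.42, 4.49 and 4.84: G536S was high, by 0.42 over the empty vector and 0.35 over wild type. CLSPN, the adaptor between ATR and CHEK1, from the list of other pathway genes, read 5.37, 5.27 and 5.81, high with G536S (0.44 and 0.54). Other checkpoint genes of that list were mixed. G536S was the highest array for HUS1 (0.39 and 0.17), TOPBP1 (0.32 and 0.11), RAD17 (0.18 and 0.21), TIPIN (0.65 and 0.25) and RHNO1 (0.06 and 0.11). It was not for TIMELESS (-0.11 and -0.10), RAD1 (-0.10 and 0.03) and ETAA1 (0.23 and -0.08). CHEK2, the kinase that ATM activates, read 2.05, 1.83 and 2.02, lowest with wild type. ATM was read on a probe set shared with NPAT, at 4.12, 4.39 and 4.39.

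At the chromatin around breaks, MDC1 recruits the ligase RNF8, whose ubiquitin marks bring in a further ligase, RNF168. The marks of these ligases bring in TP53BP1 and the BRCA1-A complex. RNF8 read 2.58, 3.08 and 3.07, with the empty vector array low by 0.50 and 0.49 (0.34 and 0.32 at the lowest after rescaling). RNF168 read 4.61, 4.89 and 4.80, and TP53BP1 read 3.18, 3.25 and 3.22. MDC1 read 6.55, 6.59 and 6.19, so G536S was the low array, by -0.36 from the empty vector and -0.41 from wild type, with 5.30% of genes at or above the median level below the latter.

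MDC1 had 13 probe sets. The 8 with a mean above the 75th percentile of gene means gave G536S differences from wild type of -0.44 to -0.40 and from the empty vector of -0.37 to -0.31, and the other 5 lay near background, with 1 shared set of values (mean 1.47) and G536S differences of 0.07 and 0.01. With the mean of all its probe sets MDC1 lay -0.23 from wild type and -0.20 from the empty vector. The 13 held 7 distinct sets of values, so several share their values and they are not independent readings. All 4 genes of this role were lower with G536S than with wild type, 3 of them by -0.09 to -0.01. Of genes at or above the median level 51.4% were above 0 in that comparison.

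**Figure D4:**
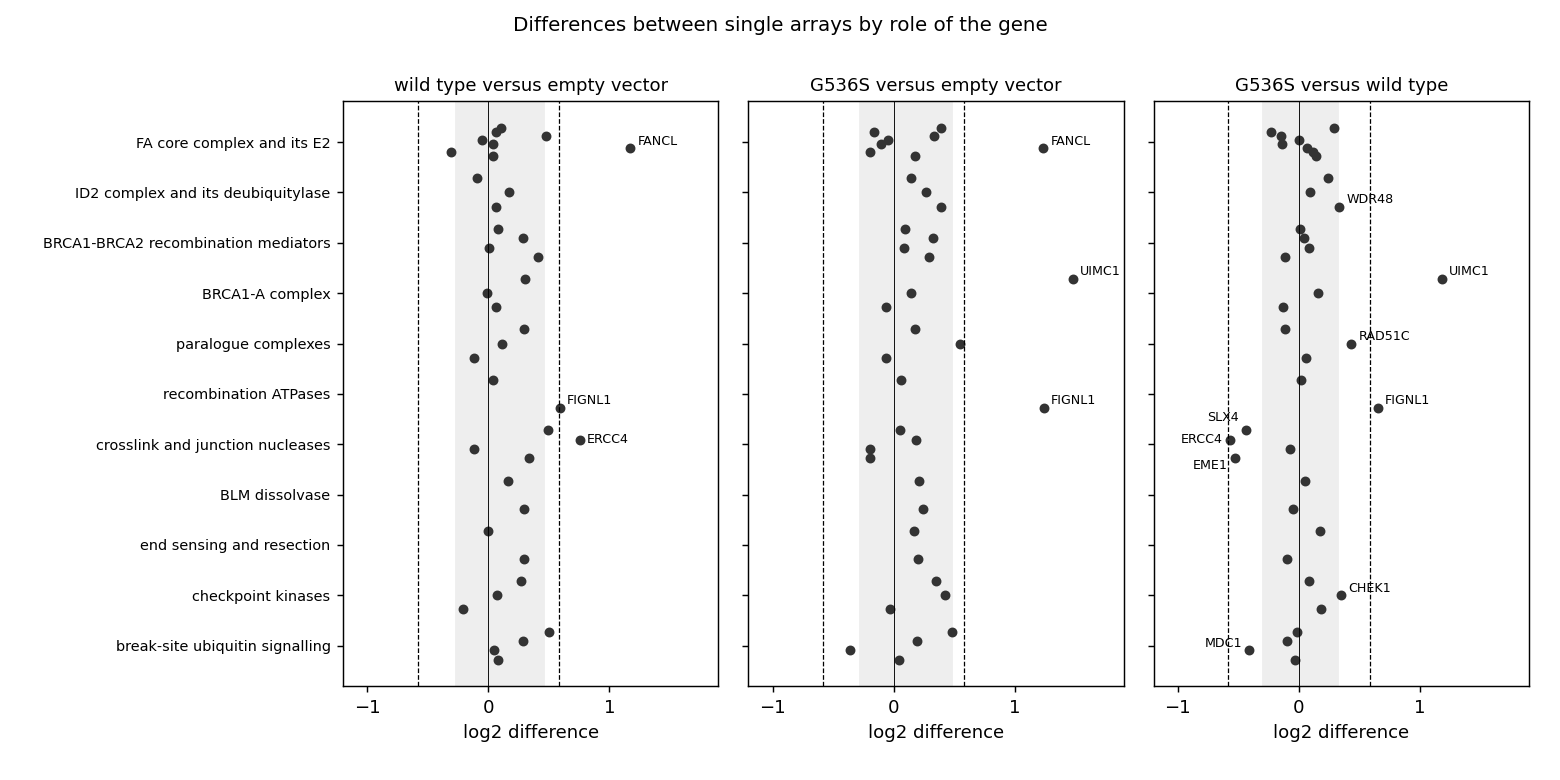
Log2 differences between single arrays (horizontal axis) of the 38 measured members, 1 point per gene, by role (vertical axis), in the 3 comparisons. Grey bands span the 10th to 90th percentile of the 11198 genes at or above the median level, and dashed lines mark 1.5-fold; FANCL, FIGNL1, ERCC4 and UIMC1 lie outside the dashed lines. For G536S versus wild type ERCC4, EME1, SLX4 and MDC1 lie left of the band and UIMC1, FIGNL1, RAD51C, CHEK1 and WDR48 right of it.

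Other genes of the pathway, 61 measured of 68 listed, were counted in the same way. At least 1.5-fold higher were 2 of 61 with wild type, 7 with G536S and 2 between G536S and wild type. At least 1.5-fold lower were 1, 1 and 0. Of all genes 2.73%, 3.05% and 1.11% were that much higher and 0.911%, 1.07% and 0.929% lower. Of genes at or above the median level the shares were 5.42%, 6.07% and 2.17% higher and 1.79%, 2.08% and 1.81% lower. The medians of the 61 were 0.13, 0.16 and 0.08, and after quantile normalization those against the empty vector were 0.01 and 0.03. RAD51AP1, which stimulates strand exchange, read 3.45, 4.11 and 4.22 and was 0.66 and 0.77 higher than the empty vector. ZSWIM7 and SWSAP1, which form a complex that acts in recombination, were highest in different arrays, ZSWIM7 with wild type (0.71 over the empty vector) and SWSAP1 with G536S (0.83). REV1, a translesion polymerase, was 0.37 higher with wild type and 0.72 with G536S, and TIPIN, a fork protection factor, 0.40 and 0.65. DMC1, the meiotic recombinase, was 0.46 and 0.63 higher and SFR1, a recombination cofactor, 0.53 and 0.59, so these genes were higher with both constructs and past 1.5-fold with G536S. CENPX, a histone-fold partner of FANCM, read 5.73, 5.29 and 5.99, and was 0.70 higher with G536S than with wild type.

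End joining genes, the alternative route of break repair, had 14 measured of 15 listed and medians of 0.05, 0.06 and 0.05, with LIG3, a DNA ligase, 0.60 higher with wild type. Cell cycle genes were read because many members are transcribed in S and G2 phase. The 26 measured S phase genes had medians of 0.02, 0.10 and 0.02, with 0 of 26 at least 1.5-fold apart in each comparison. In any of the 3 comparisons 13.6% of the genes at or above the median level were that far apart. The 28 measured G2 and M phase genes had medians of 0.18, 0.35 and 0.12. Genes at or above the median level had medians of 0.08, 0.10 and 0.01. After quantile normalization the medians against the empty vector were 0.08 and 0.18 for the G2 and M phase genes. Those of the S phase genes were then -0.09 and -0.06, and those of genes at or above the median level -0.02 and -0.03. At least 1.5-fold higher than the empty vector were 2 of 28 with wild type and 4 of 28 with G536S, among them MAD2L1 in both (0.97 and 0.94). That compares with 2.73% and 3.05% of all genes and 5.42% and 6.07% of those at or above the median level. The part of cell cycle genes in the members' differences was not tested.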

How the data were processed

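The deposited table holds log2 intensities for 53617 probe sets on 3 arrays, 1 per group, made by the authors from 300 ng of total RNA per the labels' protocols and with RMA per the submitters' processing notes; neither its version nor a genome build is given in the sources used here, and base 2 was inferred from the highest value, 12.57. With 1 array per group no error can be given.

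Gene names came from the platform's annotation of the probe sets (23871 with 1 gene, 1842 with several, 27904 with none), with symbols brought up to date by Entrez ID from RefSeq's GRCh38.p14 genes (22569 matched). A gene was given its probe set with the highest mean, for 22395 genes; 11198 had a mean of at least 1.21, the median over genes. Differences were counted at 1.5-fold and 2-fold, with no test. Members, role groups, lists and motifs were chosen with earlier results of these data known. The naming rule took members at least 1.5-fold apart and the small role groups they belong to. Values of the other members were added after they were seen, as was the mitochondrial run. So were those of pathway genes under 1.5-fold (FAAP100, ABRAXAS1, FIRRM, FIGN, ERCC1, SLX4IP, GEN1, CLSPN, HUS1, TOPBP1, RAD17, RHNO1, TIMELESS, RAD1 and ETAA1). The alternatives were quantile normalization, cyclic loess, median centring, a floor at the 25th percentile, the mean of probe sets, filters at the median and 75th percentile of gene means, and, added after seeing the data, UIMC1 by its other probe set. The counting was tested on simulated data with large set changes and little noise, at the 2-fold threshold only. That checks the arithmetic and not how reliable the counts are. A planned protein motif search was not run. Software was R 4.3.3 (limma 3.58.1) and Python 3.11.15 (pandas 2.3.3, numpy 2.4.6, matplotlib 3.10.9).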

Additional observations from a re-analysis of the deposited data

Results flagged for a closer look

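EME1, the partner of MUS81, was above the empty vector with wild type (0.33) and below it with G536S (-0.20), so the constructs went opposite ways and lay -0.53 apart; with 1 array each the difference was not tested. MDC1 likewise went opposite ways, at 0.05 and -0.36, with G536S -0.41 from wild type, also not tested (-0.20 from the empty vector and -0.23 from wild type with the mean of its probe sets); its wild-type difference changed sign under rescaling. The probe set shared by RAD54B and FSBP, which is outside the counts of members because it names 2 genes, was 0.60 higher with wild type than with the empty vector (3.97 against 4.56), and which of the genes it reads was not tested.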

How the results depend on the processing

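With 1 array per group no array can be left out, and no paired analysis was possible because no group has replicates. Of the counts and medians over all members, 9 results in 3 comparisons, those under median centring, the floor and both filters stayed within 0.1 (medians) or 1.5 times (counts). Quantile normalization gave medians of -0.020 with wild type and 0.032 with G536S against the empty vector, and 1 member 1.5-fold lower between G536S and wild type (ERCC4, -0.60). Cyclic loess gave medians of -0.018 and 0.051. Between G536S and wild type the count 1.5-fold higher became 1 with the mean of probe sets and 1 with UIMC1 by its other probe set, chosen after seeing the data, by which UIMC1 lay at -0.12 in place of 1.18. FANCL and ERCC4 kept their calls against the empty vector under every alternative run, and FIGNL1 with wild type lost its own under quantile normalization and cyclic loess. Medians of single role groups against the empty vector moved by over 0.1 under these rescalings for most roles. Under quantile normalization so did those of the other pathway genes, the S phase genes and the G2 and M phase genes. Low signal limits FANCF, FANCE and RAD51B, whose differences near background are compressed. Of the 38 members 28 were at or above the 75th percentile of gene means (2.87). CHEK2, FANCM, SLX4, FANCG, MUS81, XRCC3 and PALB2 were also below it, with means from 1.97 to 2.77. So were SWSAP1, SFR1, ZSWIM7, DMC1 and LIG3 of the other lists, from 1.81 to 2.56, and their differences may be compressed too.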
